A study of Rattus norvegicus with 24 samples.

Results

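The genes described here encode the protein complexes of the mitochondrial respiratory chain and the ATP synthase, measured in prostate, ovary, skin and forebrain of rats given dihydrotestosterone (DHT), the potent androgen made from testosterone. They were chosen by gene symbol: every probe named Nduf, Sdh, Uqcr or Atp5, or Cox followed by 4 to 8, apart from Cox6a2 and the Sdhaf assembly factors, that was well above background on 3 or more arrays of a tissue. Of 41012 probes on the array, 10813 could be given 1 of 8945 rat symbols through their accession, 58 of those met the naming rule, and 56 probes for 49 genes also met the signal rule. All 56 met it in each of the 4 tissues. The 49 genes comprise 16 of complex I, 3 of complex II, 4 of complex III, 11 of complex IV and 15 of complex V. The 2 probes that failed were Uqcrq of complex III and Cox8c of complex IV, which were well above background on 2 ovary arrays and on no other.

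The Sprague-Dawley rats were 12 weeks old and received 1 intraperitoneal dose of DHT (10 mg/kg) or vehicle, and tissue was taken 16 h later. Prostate, skin and forebrain came from males castrated 3 days before the dose, so both their DHT and their vehicle groups lacked testes, and ovaries came from intact females per the sample labels, which were followed where the series design names only castrate males. Each of the 8 groups had 3 arrays, each made from total RNA that was amplified and labelled with Cy3. Of the 24 arrays 23 were used, because vehicle array 3 of forebrain failed the submitters' quality control, per its label. Each of the 6 slides carried 4 arrays, 1 for each tissue, with vehicle on slides 1 to 3 and DHT on slides 4 to 6, so that treatment and slide cannot be told apart within a tissue.

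Complex I (NADH dehydrogenase, Nduf genes), complex II (succinate dehydrogenase, Sdh genes), complex III (the cytochrome bc1 complex, Uqcr genes) and complex IV (cytochrome c oxidase, Cox genes) pass electrons from NADH and succinate to oxygen, and I, III and IV pump protons out of the mitochondrial matrix. Complex V (ATP synthase, Atp5 genes) uses the returning protons to make ATP. The genes studied are nuclear, while some core subunits of I, III, IV and V are encoded by mitochondrial DNA and are not among them. Complex IV has subunits with tissue-specific isoforms, of which Cox8b is the form of heart and skeletal muscle, Cox4i2 is abundant in lung and Cox6b2 is known from testis. The prostate secretes large amounts of citrate and depends on androgen for its growth and secretion.

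Values are levels, that is, log2 signal minus the array's own 75th percentile, so a level of 0 equals that percentile, and a difference of 1 between arrays is a 2-fold change. A gene with several probes is described by its brightest probe, and levels of different probes are not set against each other. Each tissue's markers were highest in that tissue: the mean level of 6 prostate epithelial markers was 2.21 to 3.76 on prostate arrays and at most 0.37 elsewhere, that of 9 ovarian markers 1.63 to 2.90 against at most -3.19, that of 5 keratinocyte markers 4.97 to 5.90 against at most 0.40, and that of 7 neuronal markers 2.13 to 2.74 against at most -1.93. The share of probes well above background was 54.6% to 96.98% over the arrays used. Ovary vehicle arrays 1 and 3 and prostate vehicle array 3 had a narrow spread of signals, with interquartile ranges of 3.79, 3.21 and 5.23 log2 units, against 6.15 in ovary vehicle array 2 and 6.80 and 6.71 in prostate vehicle arrays 1 and 2.

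Some promoters of these genes, though not all, hold short sequences that are read by known regulators of respiratory genes. Of these promoters 3 are shown because their genes rose with DHT in prostate. RefSeq promoters (build GRCr8, 250 bases before and 50 after the annotated start) were found for 43 of the 49 genes. The consensus of nuclear respiratory factor 1 (NRF-1), a palindrome around 1 free base, occurred on either strand in 12 of the 43 (27.9%), against 4.71% of all 27457 promoters. CCGGAAG, an ETS site of the kind read by GABP (NRF-2), occurred in 13 (30.2%, against 9.22% of all), AAGATGG, read by YY1, in 9 (20.9%, against 7.30%), and AAGGTCA, read by estrogen-related receptors (ERR), in 7 (16.3%, against 4.37%). The full palindromic androgen receptor consensus was in 0 of the 43 and in 2 of all promoters. Member promoters also held more G and C (median 57.7%, against 52.3% over all), and the counts are not adjusted for that. The 250 bases before the start are given 5′ to 3′ on the gene's strand, with matches in capitals. Ndufs5 (chr5:141264403-141264652, minus strand) has an NRF-1 match that starts at -129 and an ERR match at -221, Ndufv3 (chr20:9613536-9613785, plus strand) an NRF-1 match at -39, and Atp5mg (chr8:54130408-54130657, minus strand) an ETS match at -216 and an ERR match at -19.
Ndufs5: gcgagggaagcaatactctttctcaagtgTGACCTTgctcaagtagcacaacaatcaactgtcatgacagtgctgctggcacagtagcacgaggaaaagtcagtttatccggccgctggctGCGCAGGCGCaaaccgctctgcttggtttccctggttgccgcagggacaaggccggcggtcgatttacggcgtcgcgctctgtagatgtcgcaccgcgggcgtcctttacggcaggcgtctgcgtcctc
Ndufv3: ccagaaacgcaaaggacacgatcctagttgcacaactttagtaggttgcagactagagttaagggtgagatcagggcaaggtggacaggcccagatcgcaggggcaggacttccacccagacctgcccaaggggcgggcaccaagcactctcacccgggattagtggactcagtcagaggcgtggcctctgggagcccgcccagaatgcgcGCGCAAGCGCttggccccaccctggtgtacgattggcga
Atp5mg: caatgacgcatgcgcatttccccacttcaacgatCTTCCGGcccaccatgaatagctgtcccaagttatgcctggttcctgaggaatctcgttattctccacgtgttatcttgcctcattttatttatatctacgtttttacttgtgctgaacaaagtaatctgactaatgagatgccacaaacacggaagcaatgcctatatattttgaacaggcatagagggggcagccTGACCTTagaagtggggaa
The other 4 genes that rose in prostate, Ndufc2, Atp5mc1, Atp5if1 and Ndufaf3, held none of these motifs in the window. A match describes the sequence and does not show that a factor binds there.

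In prostate, 7 of the 49 genes rose with DHT and 0 fell. Of the 7, 4 belong to complex I and 3 to complex V, and their levels were 1.56 to 2.17 times as high with DHT as with vehicle. Of all 26893 probes tested in prostate, 9.96% were called (5.23% higher and 4.73% lower), against 7 of the 56 member probes, all higher. Across the 49 genes the median difference was 0.37, with 45 above 0, against 0.06 over all probes tested and 0.21 over the 2690 brightest of them, of which 177 rose and 60 fell. For 31 of the 56 member probes (55.4%) the DHT arrays all lay above the vehicle arrays, against 19.5% of all probes tested, and for 0 they all lay below, against 16.5%. An unadjusted p under 0.05 occurred for 21 member probes (37.5%), against 27.9% of all probes tested. Calls are from limma's moderated test with Benjamini-Hochberg adjustment over all probes tested in the tissue, at an adjusted p of 0.05, as everywhere below. The design text calls the arrays of a group biological replicates, but the labels do not say that each came from its own animal, so that p-values measure the spread between these arrays, which may be technical. In whole tissue, more cells of a type and more RNA per cell cannot be told apart.

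Ndufc2, an accessory subunit in the membrane arm of complex I, had the smallest adjusted p in prostate. Its levels were 6.01, 6.04 and 5.99 in DHT prostates, against 4.87, 4.90 and 5.10 in vehicle prostates. The difference of 1.06 ± 0.14 (SE), a 2.08-fold rise, had an adjusted p of 0.00997 (limma), and the groups did not overlap. A second, dimmer Ndufc2 probe differed by 1.56 ± 0.40 in the same direction, with an adjusted p of 0.071 (limma) from 3 DHT and 2 vehicle arrays because its spot on vehicle array 3 was an outlier. In forebrain the 2 probes did not move alike, as given below.

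Ndufv3, an accessory subunit of the NADH-binding module, lay at 4.87, 4.86 and 4.88 in DHT prostates and at 3.28, 3.67 and 4.29 in vehicle prostates. The DHT arrays agree closely while the vehicle arrays spread over 1 log2 unit, and the rise of 1.12 ± 0.26 passed narrowly (2.17-fold, limma adjusted p = 0.0470). Ndufs5, an accessory subunit on the side of the intermembrane space, rose 1.68-fold, with levels of 4.55, 4.46 and 4.74 in DHT prostates, against 3.84, 3.70 and 3.97 in vehicle prostates (difference 0.75 ± 0.16, limma adjusted p = 0.0341). Ndufaf3, an assembly factor of complex I, lay at 2.42, 2.56 and 2.57 with DHT and at 1.81, 1.82 and 1.99 with vehicle (difference 0.65 ± 0.14, limma adjusted p = 0.0391). It is the seventh by size and is named after its values were seen.

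In complex V, Atp5mc1, which encodes the c subunit of the rotating ring of ATP synthase, rose 2.09-fold. Its levels were 5.88, 5.40 and 5.44 in DHT prostates, against 4.22, 4.50 and 4.81 in vehicle prostates (difference 1.06 ± 0.22, limma adjusted p = 0.0333). Atp5mc2, which encodes the same c subunit protein with another import sequence, differed by 0.47 ± 0.24 and did not pass. Atp5if1, the inhibitor that stops ATP synthase from running backwards, lay at 6.49, 6.23 and 6.40 with DHT and at 5.51, 5.82 and 5.74 with vehicle (difference 0.69 ± 0.16, limma adjusted p = 0.0461). Atp5mg, the g subunit of the membrane part, lay at 5.87, 5.78 and 5.80 with DHT and at 5.04, 5.17 and 5.28 with vehicle (difference 0.66 ± 0.14, limma adjusted p = 0.0370). All 7 genes had higher levels on each DHT array than on any vehicle array.

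**Figure D1:**
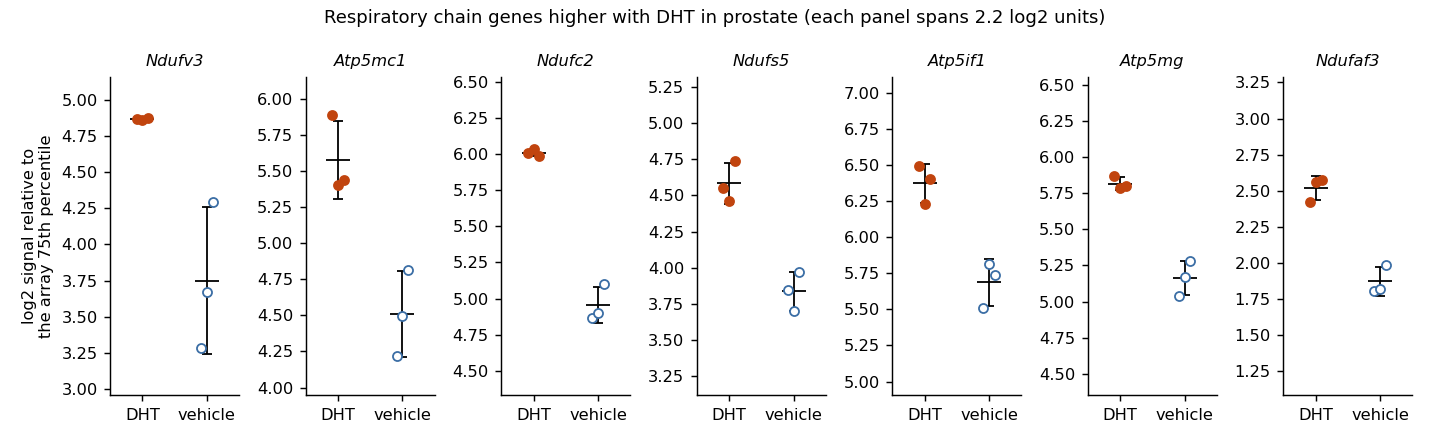
Levels of the 7 respiratory chain genes that rose with DHT in prostate, as log2 signal relative to the array's 75th percentile. Points are arrays (filled, DHT; open, vehicle; 3 each), and bars are the mean and SD; for Ndufc2 the DHT arrays sit at 5.99 to 6.04, above the vehicle arrays at 4.87 to 5.10.

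The 7 calls fell in complexes I and V. Median differences in prostate were 0.44 for complex I, 0.32 for complex II, 0.09 for complex III, 0.32 for complex IV and 0.49 for complex V. Within complex I, the 5 core subunits had a median of 0.18 and 0 were called, while the 8 accessory subunits had a median of 0.60 with 3 called and the 3 assembly factors a median of 0.48 with 1 called. Whether the complexes differ from each other was not tested. The iron-sulphur and flavin core subunits Ndufs1, Ndufv1 and Ndufv2 differed by 0.18 ± 0.24, -0.04 ± 0.16 and 0.37 ± 0.15, and none passed. For Ndufs1, vehicle array 1 was an outlier spot, and its difference rests on 3 DHT and 2 vehicle arrays.

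Complex II, which also works in the citric acid cycle, gave differences of 0.32 ± 0.16 for the flavoprotein Sdha, 0.37 ± 0.15 for the membrane anchor Sdhc and -0.10 ± 0.16 for the other anchor, Sdhd. In complex III, the core proteins Uqcrc1 and Uqcrc2 and the Rieske iron-sulphur protein Uqcrfs1 differed by 0.12 ± 0.16, -0.00 ± 0.16 and 0.06 ± 0.17. The lowest adjusted p in complex III was 0.574 (limma). The catalytic head of ATP synthase gave 0.34 ± 0.17 for the alpha subunit Atp5f1a and 0.04 ± 0.17 for the beta subunit Atp5f1b. None of these 8 genes passed the test.

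In complex IV, 10 of 11 genes lay above 0 in prostate and 0 were called. The closest was Cox7b at 0.64 ± 0.16, with levels of 4.01, 3.96 and 3.94 in DHT prostates, against 3.20, 3.22 and 3.56 in vehicle prostates (limma adjusted p = 0.0548). Among the other isoform genes, Cox6a1 differed by 0.61 ± 0.23, Cox4i1 by 0.39 ± 0.17, Cox7a2 by 0.32 ± 0.14, Cox8a by 0.30 ± 0.19, Cox4i2 by 0.27 ± 0.20, Cox8b by 0.14 ± 0.50 and Cox6b2 by -0.14 ± 0.50. Cox8b was well above background on 3 of the 6 prostate arrays and Cox6b2 on 4, so that their differences are poorly measured there. No probe matched Cox6b1, Cox7a1, Cox7a2l, Ndufa4, Ndufa4l2, Atp5mc3 or Sdhb under the rule.

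These calls depend on single arrays. Leaving out DHT array 1, DHT array 3, vehicle array 1 or vehicle array 2 left 1 of 56 member probes called, leaving out DHT array 2 left 0, and leaving out vehicle array 3, whose signals were compressed, gave 8. The median difference stayed between 0.33 and 0.47 over these 6 fits. Under normexp background correction 1 probe was called, under median centring 3 and under quantile normalization 5, with no member probe lower in any of them, and the gene median was 0.47, 0.39 and 0.30. Ndufc2 stayed below the threshold in 13 of 15 alternative fits, with a difference of 1.01 to 1.15. The other called genes stayed below it in fewer of the 15 fits. Atp5mc1 did so in 7, Ndufaf3, Ndufs5 and Ndufv3 in 6 each, Atp5mg in 5 and Atp5if1 in 3.

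Adipocyte markers moved with the prostate groups. All 5 of the 7 listed that were tested were higher with DHT, and 4 of them rose: Cidec (3.02-fold, a lipid droplet protein), Adipoq (2.70-fold, adiponectin), Fabp4 (2.47-fold, a fatty acid carrier) and Pparg (2.23-fold, the regulator of fat cell formation). The mean level of the 7 was -0.57, -0.50 and -0.99 on the DHT arrays and -1.73, -1.76 and -1.22 on the vehicle arrays. Their part in the rise of the respiratory chain genes was not tested. Of 6 prostate epithelial markers on the same arrays, 4 were higher with DHT and 2 lower, with a median of 0.95. In each direction 2 were called. The androgen target Pbsn, probasin of the rat prostate, rose 57.7-fold, and the 2 that fell were the keratins Krt8 (1.98-fold) and Krt19 (2.66-fold).

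Other genes of mitochondria and of glucose breakdown were counted from 7 lists, beside 5.23% of all prostate probes higher and 4.73% lower. In prostate, 1 of 14 citric acid cycle genes rose (Mdh2, malate dehydrogenase, 1.64-fold) with a list median of 0.11. Of 12 electron carriers and assembly factors, 1 rose (Etfb, an electron transfer flavoprotein subunit, 1.82-fold), and the median was 0.31 with all 12 above 0. Of 24 mitochondrial ribosomal proteins, 2 rose (Mrpl49, 2.04-fold, and Mrpl41, 1.64-fold), median 0.16. Of 23 import, chaperone and carrier genes tested, 0 were called, median 0.17. Among 8 regulators of mitochondrial genes tested, Myc fell 1.55-fold and the median was -0.01. In fatty acid oxidation (15 genes, median 0.26) the 2 carnitine palmitoyltransferases that passed went opposite ways, Cpt2 rising 2.27-fold and Cpt1a, the gate for entry of fatty acids, falling 3.80-fold. In glycolysis (16 genes, median 0.05), Hk2, hexokinase 2, rose 3.05-fold and the glucose transporter Slc2a1 2.44-fold.

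In ovary, 0 of 56 member probes were called, 0 had an unadjusted p under 0.05 (against 10.7% of all probes tested), and 0% of the 33051 probes tested were called. The median difference over the 49 genes was 0.20 with 45 above 0, against -0.23 over all probes and 0.15 over the 3306 brightest. By complex the medians lay between 0.11 for complex II and 0.22 for complex V. Among the genes with the smallest unadjusted p were Cox6b2 (0.35 ± 0.24), Uqcrc1 (0.30 ± 0.22) and Ndufaf4 (0.43 ± 0.35), none with an adjusted p under 0.58 (limma). Without vehicle arrays 1 and 3, which leaves 1 vehicle array, these 3 genes differed by 0.24, 0.37 and -0.14. The DHT arrays all lay above the vehicle arrays for 3 member probes (5.36%, against 2.76% of all), and all below for 0 (against 11.3%).

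The ovary vehicle arrays disagreed with each other on these genes. The median level of the 49 genes was 4.99, 4.81 and 4.93 on the DHT arrays and 4.15, 4.78 and 5.15 on the vehicle arrays, so the vehicle arrays lay on both sides. For Atp5mk, a small subunit of ATP synthase, the levels were 4.74, 4.83 and 4.83 with DHT and 3.72, 4.69 and 5.22 with vehicle. Leaving out 1 array at a time moved the median between -0.04 and 0.41, quantile normalization gave 0.09 and median centring 0.89. Without vehicle arrays 1 and 3, which leaves 1 vehicle array, the median was 0.19.

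In skin, 0 of 56 member probes were called, 1 had an unadjusted p under 0.05 (1.79%, against 4.97% of all probes tested), and 0% of the 27291 probes tested were called. The median difference over the 49 genes was 0.56 with 42 above 0, against 0.04 over all probes and 0.01 over the 2730 brightest. Medians by complex were 0.55 (I), 0.81 (II), 0.59 (III), 0.44 (IV) and 0.49 (V). Without overlap, the DHT arrays lay above the vehicle arrays for 9 member probes (16.1%, against 6.01% of all) and below for 3 (5.36%, against 6.23%).

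Vehicle array 1 of skin stood apart in muscle RNA. The mean level of 12 skeletal muscle markers was 10.6, 8.21 and 8.76 on the DHT arrays, against -1.52, 9.05 and 9.03 on the vehicle arrays. Cox8b, the muscle isoform of subunit 8, followed the same arrays, at 8.78, 6.72 and 7.25 with DHT, against -5.42, 6.66 and 6.62 with vehicle. Its difference of 4.96 ± 3.14 did not pass (limma adjusted p = 0.750), and without vehicle array 1 it was 0.94 ± 0.62. The median level of the 49 genes was 6.18, 5.63 and 5.64 on the DHT arrays, against 4.90, 5.55 and 5.38 on the vehicle arrays. The part of muscle RNA in this difference was not tested. Without vehicle array 1 the median difference was 0.39, and without DHT array 1 it was 0.22.

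**Figure D2:**
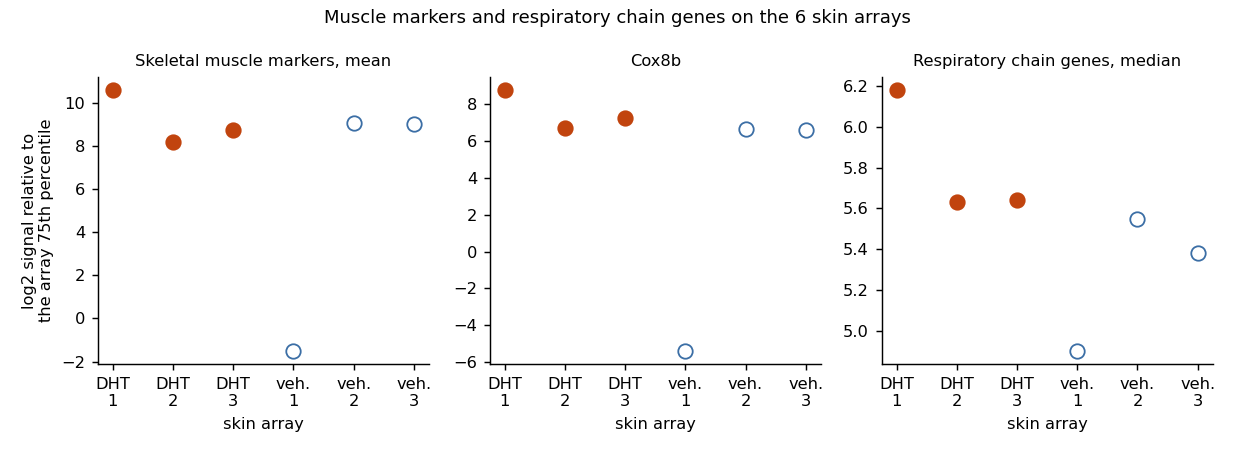
The 6 skin arrays (filled, DHT; open, vehicle), with the mean level of 12 skeletal muscle markers, the level of Cox8b and the median level of the 49 respiratory chain genes, all as log2 signal relative to the array's 75th percentile. Vehicle array 1 is lowest in each panel (-1.52, -5.42 and 4.90) and DHT array 1 highest (10.6, 8.78 and 6.18).

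Sdhc, Cox6c and Sdhd, 3 of the 4 skin genes with the smallest unadjusted p, differed by 0.91 ± 0.40, 0.87 ± 0.44 and 0.81 ± 0.42. Without vehicle array 1 they differed by 0.62, 0.60 and 0.52. Cox6b2 went the other way. Its levels were -2.09, -0.37 and -0.82 in DHT skin, against 0.56, 0.40 and 0.74 in vehicle skin, and the difference of -1.66 ± 0.46 had an unadjusted p of 0.0094 and an adjusted p of 0.750 (limma). It was -1.66 without vehicle array 1 and -1.16 without DHT array 1, and the groups did not overlap.

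In forebrain, where 3 DHT and 2 vehicle arrays were used, 0 of 56 member probes and 0% of the 29722 probes tested were called. An unadjusted p under 0.05 occurred for 12 member probes (21.4%), a smaller share than the 28% of all probes tested. The median difference over the 49 genes was -0.14 with 35 below 0, against -0.00 over all probes and -0.15 over the 2973 brightest, and it was 0.03 under quantile normalization. Every DHT array lay below every vehicle array for 19 member probes (33.9%, against 23.1% of all) and above for 10 (17.9%, against 24.7%). Medians by complex were -0.01 (I), -0.11 (II), -0.09 (III), -0.34 (IV) and -0.20 (V).

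Over all member probes, dimmer ones included, the lowest adjusted p in forebrain was 0.0684 (limma). Among genes described by their brightest probe, the smallest unadjusted p was that of Cox8b. Its levels were -1.63, -2.01 and -2.21 with DHT and -0.32 and 1.06 with vehicle, a difference of -2.32 ± 0.44 (limma adjusted p = 0.0707). Skeletal muscle markers lay lower on the same arrays, with a mean level of -1.05, -1.85 and -1.86 with DHT, against 0.42 and 0.41 with vehicle. Of the 12 markers 10 were lower, among them Ckm (muscle creatine kinase, -5.82) and Myh4 (a fast myosin, -4.76), and all 12 had an unadjusted p under 0.05. Their part in the Cox8b difference was not tested. Cox6b2 lay at -3.56, -3.82 and -4.05 with DHT and at -2.79 and -2.96 with vehicle (difference -0.94 ± 0.18, limma adjusted p = 0.0721).

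Core subunits of complex I lay on both sides in forebrain. Ndufs1, the largest iron-sulphur subunit, was at 2.48, 2.41 and 2.53 with DHT and at 1.76 and 1.98 with vehicle (difference 0.60 ± 0.13, limma adjusted p = 0.0791). Ndufs7, which carries the last iron-sulphur cluster before ubiquinone, was at 5.47, 5.48 and 5.44 with DHT and at 5.86 and 6.08 with vehicle (difference -0.51 ± 0.13, limma adjusted p = 0.0917). In the fatty acid oxidation list all 15 genes lay lower with DHT in forebrain, 13 with an unadjusted p under 0.05 and 0 called, and the list median was -0.48. Under quantile normalization Cox6b2 was called lower and the dimmer Ndufc2 probe higher, and under normexp these and Cox8b, which was lower. Over all forebrain probes these settings called 391 higher and 407 lower (quantile) and 302 higher and 658 lower (normexp). With the main scaling the dimmer Ndufc2 probe differed by 0.93 in forebrain, the highest value of the member probes, and was not called. The brightest Ndufc2 probe differed by -0.05 without DHT array 1.

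**Figure D3:**
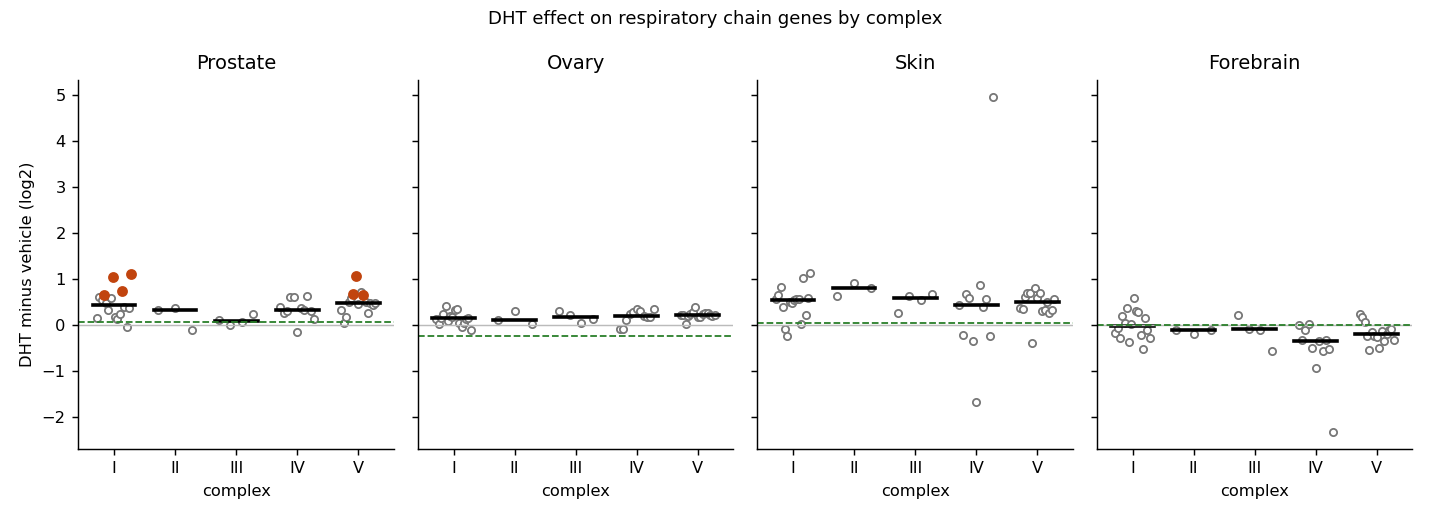
Difference between DHT and vehicle (log2) for each of the 49 genes by complex in 4 tissues. Points are genes (filled, called), thick bars are the medians of a complex, and the dashed line is the median of all probes tested; called genes occur in prostate in complexes I and V, and the points farthest from 0 are Cox8b in skin (4.96) and forebrain (-2.32).

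The DHT effect was then compared between tissues in 1 fit over all 23 arrays. In 0 of 56 member probes did it differ by the F test over the 4 tissues, against 5.04% of 23552 probes, and the smallest adjusted p was 0.0888 for Atp5if1, followed by Cox6a1 (0.0960), Cox6b2 (0.100), Ndufs5 (0.138), Ndufv3 (0.150) and Ndufc2 (0.169). Atp5if1 passed in 1 pairwise contrast: its DHT effect in prostate was higher than in skin by 1.07 ± 0.29 (limma adjusted p = 0.0410, against 5.35% of all probes called in that contrast). Its levels in skin were 5.31, 5.85 and 5.80 with DHT and 6.11, 5.92 and 6.07 with vehicle. Without skin vehicle array 1 the contrast was 0.98, with an adjusted p of 0.0908. Ndufv3, which rose in prostate, differed by 1.14 ± 0.63 in skin, where its DHT arrays lay at 5.60, 3.98 and 3.99 and its vehicle arrays at 2.31, 3.99 and 3.87. Without skin vehicle array 1 that difference was 0.60 ± 0.55.

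The F test over tissues called the level of 48 of 56 member probes (41 of 49 genes, by the brightest probe), a share close to the 88.3% of all 34974 probes tested. By the median, skin stood highest on this scale, though not above forebrain under quantile normalization or normexp. The mean level of the skeletal muscle markers was 8.21 to 10.6 on 5 of the 6 skin arrays and -1.52 on vehicle array 1, against -2.75 to 0.42 on the arrays of the other tissues, and its part in the skin levels was not tested. Compared with skin, 3 of 49 genes were higher in prostate and 26 lower (29.8% and 35.2% of all probes), with a median of -0.85 against -0.28 over all probes. In ovary 5 genes were higher than in skin and 30 lower (33.4% and 28.1% of all), with a median of -0.67 against 0.10. Between skin and forebrain the direction of the median depended on the scaling. Here 24 genes were higher in skin and 10 lower (39.8% and 30.9% of all), with a median of 0.47 against 0.32 over all probes. The median of the genes was -0.15 under quantile normalization and -0.02 under normexp.

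Skin arrays were also the dimmest. Their 75th percentile lay at 55.6 to 379 intensity units, against 486 to 2384 on the other arrays used. Compared with forebrain, 1 gene was higher in prostate and 15 lower (35.3% and 28.1% of all), median -0.35 against 0.17 over all probes. In ovary 4 were higher than in forebrain and 14 lower (37.7% and 23.7% of all), median -0.30 against 0.34. Between prostate and ovary 5 genes were higher in prostate and 8 lower (21.6% and 27.4% of all), median -0.03 against -0.21. Quantile normalization and normexp kept the sign of these 5 medians and gave -0.42 and -0.40 for prostate minus skin and -0.11 and -0.23 for ovary minus skin. Relative to the median of all probes, prostate minus skin was -0.57 and ovary minus skin -0.77, but 0.55 and 0.81 under normexp, which moved the medians of all probes to -0.96 and -1.04.

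**Figure D4:**
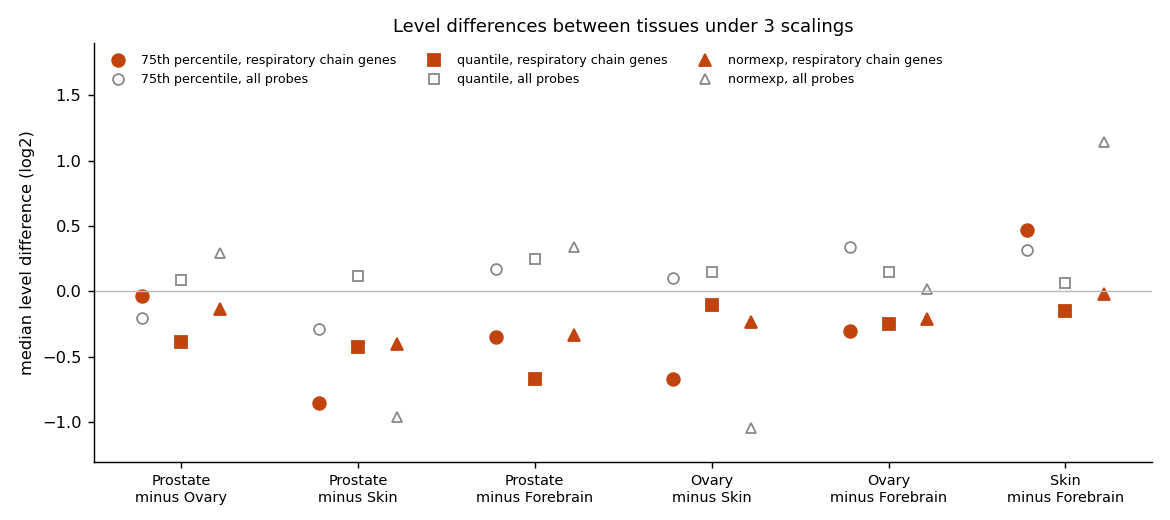
Median level difference (log2) between pairs of tissues over the 49 respiratory chain genes (filled) and over all probes tested (open), under 3 scalings (circles, 75th percentile; squares, quantile; triangles, normexp). Prostate minus skin lies at -0.85, -0.42 and -0.40 for the respiratory chain genes, while skin minus forebrain lies at 0.47, -0.15 and -0.02.

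Differences between the complexes were not tested here either. The median of prostate minus skin was -1.34 for complex IV (8 of 11 genes lower), -0.96 for complex V (10 of 15 lower), -0.85 for complex II (2 of 3 lower and 1 higher), -0.19 for complex III (0 of 4 called) and -0.18 for complex I (6 of 16 lower and 2 higher). Sdha was the complex II gene that was higher in prostate than in skin, by 0.53, while Sdhc and Sdhd were lower (differences of -1.06 and -0.85). Genes whose brightest probe was not called over tissues were Atp5f1a, Atp5pb, Atp5pf, Ndufaf4, Ndufv1, Uqcrc1, Uqcrc2 and Uqcrfs1. The probes of Ndufaf4 disagreed: its brightest gave a prostate minus skin difference of 0.05, while its 2 dimmer probes were called, with differences of -1.89 and -1.62.

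The 6 genes with the smallest adjusted p over tissues were Cox6b2, Cox4i2, Ndufs4, Cox7b, Ndufa11 and Ndufaf7. Cox6b2, well above background on 1 of 3 DHT and 3 of 3 vehicle arrays of prostate, was lower in prostate than in skin (difference -4.42 ± 0.29) and than in ovary (-4.09 ± 0.29), whereas ovary minus skin was -0.33 ± 0.29 and not called. Cox4i2 was highest in skin, with means of 2.46 ± 0.86 in DHT and 2.66 ± 0.53 in vehicle skin (SD, n = 3 each), then in ovary (1.48 ± 0.15 and 1.57 ± 0.12), and it lay at -0.12 ± 0.10 and -0.39 ± 0.34 in prostate and -0.21 ± 0.08 and 0.12 ± 0.06 in forebrain (vehicle n = 2), 2 tissues whose difference of -0.21 ± 0.24 was not called. Cox7b was higher in skin than in prostate (difference -2.28 ± 0.21), and prostate minus ovary was 0.11 ± 0.21 and not called.

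Ndufs4, a complex I subunit needed late in assembly, was highest in forebrain, with means of -0.25 ± 0.13 with DHT and -0.54 ± 0.04 with vehicle, then in ovary (-1.19 ± 0.15 and -1.25 ± 0.52). It was lowest in prostate (-2.64 ± 0.43 and -2.87 ± 0.04) and skin (-2.26 ± 0.39 and -2.82 ± 0.33), whose difference of -0.21 ± 0.19 was not called. Ndufa11, a membrane-arm subunit, was higher in skin than in prostate (difference -1.85 ± 0.18), and no difference among prostate, ovary and forebrain was called (-0.03 to 0.05). Ndufaf7, a methyltransferase that acts in complex I assembly, was instead higher in prostate than in skin (1.28 ± 0.13) and than in ovary (0.89 ± 0.13), while prostate minus forebrain was 0.05 ± 0.14 and not called.

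Cox8b was well above background on 2 of 3 DHT and 1 of 3 vehicle arrays of prostate, so that its prostate level, and each difference from it, is poorly measured. Its level in prostate was below that in skin (difference -9.90 ± 1.39, limma adjusted p = 6.24e-06), and the difference was -11.9 without skin vehicle array 1. Ovary lay above prostate (prostate minus ovary -4.82 ± 1.39), at 0.64, -0.70 and 0.65 with DHT and -1.48, -1.17 and 2.17 with vehicle. Ovary minus forebrain was 0.68 ± 1.48 and not called. Cox8a, the form found in most tissues, differed far less: forebrain was highest, at 7.04, 6.81 and 6.66 with DHT and 7.20 and 7.48 with vehicle, and no difference among the other 3 tissues was called (-0.26 to -0.03). Cox6a1 was higher in forebrain than in prostate (-0.75), ovary (-0.62) and skin (-0.48), and Cox4i1 was lower in ovary than in skin (-0.75) and forebrain (-0.83).

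**Figure D5:**
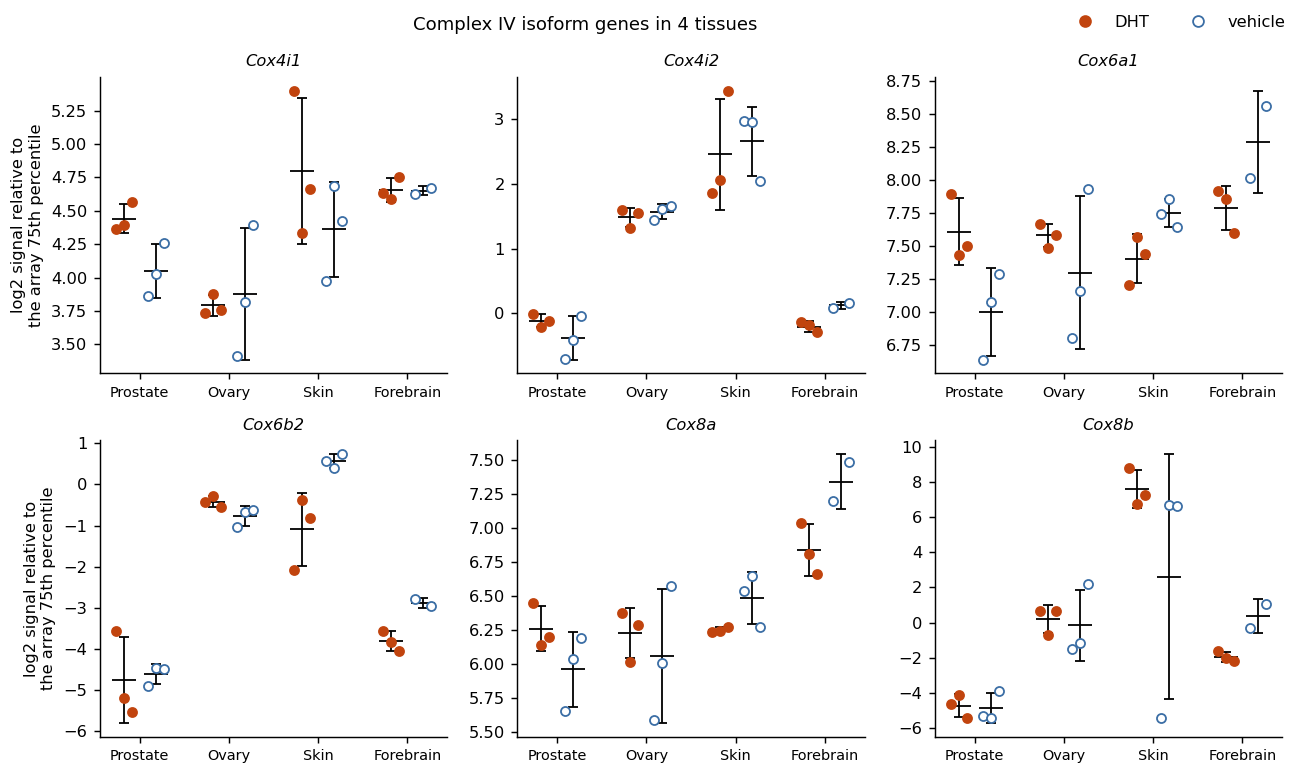
Levels of 6 complex IV genes in 4 tissues as log2 signal relative to the array's 75th percentile, each panel with its own axis. Points are arrays (filled, DHT; open, vehicle) and bars are the mean and SD; Cox8b spans -5.44 in prostate to 8.78 in skin, while Cox8a spans 5.59 to 7.48.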

How the data were processed

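The members, gene lists and tests were chosen with earlier results of these data known. Amplified RNA carried Cy3, per the labels. The deposited files give spot intensity on a linear scale from Agilent Feature Extraction, version 10.5.1.1 per the file headers and 10.1 per the submitters' processing notes, on an array designed on rn4. The processed intensity had its background subtracted by that software, without scaling across arrays, per the file headers. Control spots (1417 of 42429) and outlier spots were left out, and 0 probe spots were saturated. The log2 of the deposited intensity minus the array's 75th percentile was computed here and tested with limma 3.58.1 (R 4.3.3) in each tissue alone, on probes well above background on 3 or more of its arrays, with Benjamini-Hochberg adjustment over all probes tested and a threshold of 0.05. Tissues were compared in 1 fit of 8 group means with slide as a random block (correlation 0.0842 for levels and 0.111 for DHT effects). The fits were checked on simulated data. Symbols came from RefSeq accessions, and figures were drawn with matplotlib 3.10.9.

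Named genes were, in each tissue, up to 6 called rises and 6 called falls by size whose groups do not overlap (with under 3 called, the 4 with the smallest unadjusted p), the complex IV and Atp5mc isoforms, the core subunits and Atp5if1, the 6 genes with the smallest adjusted p between tissues for level and for DHT effect, and up to 3 called genes of each other list. Alternatives were quantile normalization, normexp, median centring, no filter, 1 probe a gene, array weights, the replicate number as a block and arrays left out. Normexp (offset 50) used the median signal, because the mean signal planned for it was not among the columns used. The number of arrays limits the precision. The single values of 1 gene that this rule names are not reported here.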

Additional observations from a re-analysis of the deposited data

Results flagged for a closer look

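The DHT effect on Atp5if1, the ATP synthase inhibitor, stood out because it differed between 2 tissues by a test of the difference itself. It was higher in prostate than in skin by 1.07 ± 0.29 (SE) on the log2 scale (limma adjusted p = 0.0410), with 3 of 3 DHT arrays above every vehicle array in prostate (difference 0.69 ± 0.16) and 3 of 3 below every vehicle array in skin (difference -0.38 ± 0.26, not called). In this contrast 1 of 56 member probes was called, against 5.35% of all probes, and 0 were called in the other pairs of tissues. The F test over 4 tissues gave an adjusted p of 0.0888. Over the other settings and the fits with 1 array left out, the contrast ranged from 0.90 to 1.17. Its adjusted p was 0.201 under normexp and 0.0646 without the slide block, and it reached 0.111 without prostate vehicle array 1. The call was also lost without skin vehicle array 1. Treatment and slide cannot be told apart here.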

How the results depend on the processing

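Of 122 counts and medians recomputed under other settings, 100 stayed near the main value and 22 moved. Of 103 single-gene values, which include level differences between tissues, 74 kept their call and 29 lost it. With 1 array left out, 59 of 69 counts and medians stayed near the main value and 10 moved. Of 65 single-gene values in those fits, all on DHT effects, 17 kept their call and 48 lost it. No called value changed sign. In prostate, 7 member probes were called, against 1 under normexp, 3 with median centring, 1 without the filter, 16 with array weights and 0 with the replicate number as a block, and 0 to 8 with 1 array left out. Same-numbered arrays did not deviate together (correlations -0.43 to 0.0153), so the block is not a pairing. In forebrain, 2 were called under quantile normalization and 3 under normexp, against 0. The median DHT difference was 0.89 in ovary with median centring, and in forebrain 0.0316 under quantile normalization and 0.22 with vehicle array 3. With 1 array left out it ranged from 0.33 to 0.47 in prostate, -0.04 to 0.41 in ovary, 0.22 to 0.76 in skin and -0.29 to -0.02 in forebrain. The DHT effect differed between tissues for 1 probe without the 3 compressed arrays and for 0 to 2 with 1 array left out. Median level differences under quantile normalization were -0.39 (prostate minus ovary), -0.42 (prostate minus skin), -0.67 (prostate minus forebrain), -0.11 (ovary minus skin) and -0.15 (skin minus forebrain). Under normexp they were -0.40 (prostate minus skin), -0.23 (ovary minus skin) and -0.0196 (skin minus forebrain), and on DHT arrays alone -0.0380 (prostate minus forebrain), -0.94 (ovary minus skin), 0.96 (skin minus forebrain) and 0.11 (prostate minus ovary). The causes were not tested. Calls over all prostate probes were 52.5% higher, and 67.4% with outlier spots kept in the percentile. The outlier-spot and common-probe percentiles and the fit without skin vehicle array 1 were chosen after seeing the data.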

Other observations

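In skin, the median level of 16 glycolysis genes was 5.26, 5.15 and 5.26 on the DHT arrays, against 3.11, 5.19 and 5.21 on the vehicle arrays, so that vehicle array 1, the array low in muscle markers, stood apart. Their median DHT difference was 0.86, against 0.04 over all probes, with 0 called. In ovary the citric acid cycle list had a median of 0.21, with 13 of 14 above 0 and 0 called. In forebrain, neuronal markers lay higher with DHT in 7 of 7 genes (median 0.50) and glial markers lower in 5 of 6 (median -0.52), with 0 called.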
